A study of Ovis aries with 8 samples.

Results

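Transcripts of 10 early-response genes were followed in pancreatic islets of fetal sheep: the nuclear receptors NR4A1, NR4A2 and NR4A3, the zinc-finger factors EGR1, EGR2, EGR3, KLF4 and KLF6, and the feedback regulators DUSP1 and ZFP36. They were chosen by exact gene name among the 25000 rows of the expression table, whatever their values, and all 10 were found. Each was the only row at its locus, and each passed the abundance filter that left 13252 genes for testing. The islets were isolated and handpicked from 8 near-term singleton fetuses of Columbia-Rambouillet crossbred ewes. The norepinephrine group (n = 4) received norepinephrine bitartrate intravenously for 7 days, at 1 µg/min on day 1, 2 µg/min on days 2 to 4 and 4 µg/min on days 5 to 7. The control group (n = 4) was infused with diluent only, a saline solution (0.9%) holding ascorbic acid (0.3%). Controls were 139 to 140 days of gestation and norepinephrine fetuses 137 to 139 days, and each group held 1 female, namely control 2 and norepinephrine 3. The time from the infusion to islet collection was not given in the sources used here.

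Immediate-early genes are transcribed within minutes of a stimulus from factors already present in the cell, and their transcripts are short-lived. In beta cells cyclic AMP and calcium are known to induce NR4A and EGR genes, and norepinephrine acting on alpha-2 adrenergic receptors lowers cyclic AMP. DUSP1 and ZFP36 belong to the negative feedback of such responses: DUSP1 removes phosphate from MAP kinases, and ZFP36 binds AU-rich elements in messenger RNAs and speeds their decay.

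RNA abundance was measured by sequencing of selected messenger RNA and is given as FPKM, fragments per kilobase of gene model, divided by library size. Summed FPKM ran from 768021 to 1112624 per animal. The number of fragments behind a value is unknown, so no counting interval was computed. The animal numbers begin with 09 (control 2 and norepinephrine 1, 3 and 4) or with 10 (controls 1, 3 and 4 and norepinephrine 2), and the labels do not say what these digits mean. All summed values of animals numbered 09 lay above those of animals numbered 10. Fetuses numbered 09 were 137 to 139 days old and both females were among them, while those numbered 10 were 139 to 140 days old. Fetal weight was 2.8 to 3.6 kg in 09 and 3.7 to 5.0 kg in 10, so number, age, weight, sex and treatment overlap in part and cannot be told apart in full. Differences below are of log2(FPKM + 1), which understates the change of genes near 1 FPKM, and ± values are SDs.

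The islet label was compared with marker genes. Of 24 endocrine markers 20 were listed, and their summed level ran from 11355 to 20771 FPKM per animal, led by CHGA and SCG5, which encode granule proteins. INS, PPY, NEUROD1 and HHEX were not among the rows named, and IAPP was listed at 0 in all 8 animals. Acinar markers (13 of 28 listed) summed to 150 to 1191 FPKM, endothelial markers (14 of 17) to 228 to 528, mesenchymal markers (16 of 18) to 1762 to 5524 and leukocyte markers (17 of 19) to 203 to 356. RNA of marker genes of several cell types was thus present. In such bulk samples fewer cells of a type and less RNA per cell cannot be told apart.

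The 10 genes spanned a wide range of abundance. Averaged over the 8 animals and per length, ZFP36 was the most abundant at 62.9 FPKM, followed by EGR1 at 49.0, DUSP1 at 25.2, KLF6 at 20.7 and NR4A1 at 15.0. Lower levels were found for NR4A2 (7.80), KLF4 (6.41), EGR2 (5.27), EGR3 (3.54) and NR4A3 (1.55). By mean FPKM, ZFP36 lay above 83.1% of the 13252 tested genes and NR4A3 above 4.96%. Neighbours in this order were not always separated. ZFP36 exceeded EGR1 in 5 of 8 animals and KLF4 exceeded EGR2 in 4 of 8. By contrast EGR1 exceeded DUSP1, NR4A1 exceeded NR4A2 and EGR3 exceeded NR4A3 in 8 of 8 animals. The ranges over animals overlapped for every pair of neighbours.

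Norepinephrine was compared with control to ask whether sustained catecholamine exposure left a trace in this early-gene program. None of the 10 genes passed the test, and the 2 groups overlapped in every one. Of the 10, 8 had lower and 2 (EGR2 and ZFP36) had higher means with norepinephrine, with a median log2 difference of -0.11, against 0.017 over all tested genes, of which 47.4% had lower means. With limma and Benjamini-Hochberg adjustment over all 13252 genes, 0 members were called, against a background of 0% of genes called (0 of 13252; 975 genes had an unadjusted p under 0.05). The members' adjusted p ran from 0.681 to 0.988. Groups without overlap were found for 0 members and for 4.23% of tested genes (1.88% higher and 2.35% lower with norepinephrine). The count of lower members was 8 under both other scalings of the libraries, 5 without control 2 and 4 without norepinephrine 2. With equal summed FPKM most genes were lower: 4037 of 13263 had higher means. The median there was -0.12 over all genes and -0.25 over the members. With equal upper quartiles 6880 of 13248 genes had higher means.

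**Figure D1:**
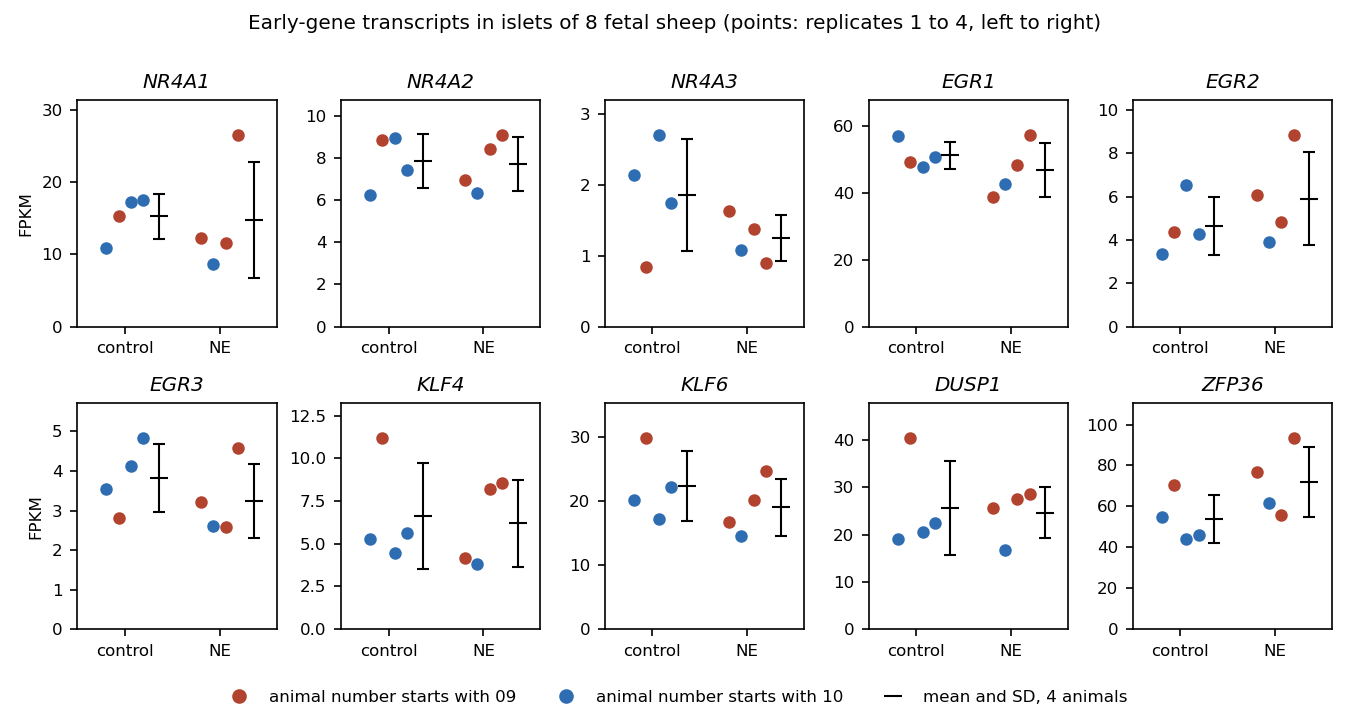
FPKM of each of the 10 genes (vertical axis, starting at 0, own scale per gene) in the 4 control and 4 norepinephrine (NE) animals. Points are animals in the order of replicates 1 to 4, coloured by number group (09 or 10), and bars are the mean and SD of 4 animals. The groups overlap for every gene, norepinephrine 4 is the highest point for 5 genes, and the DUSP1 points numbered 09 all lie above those numbered 10.

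The NR4A receptors are orphan nuclear receptors whose activity follows mainly from their own abundance. NR4A1 (also called Nur77; chromosome 3, 134111451 to 134116506 on build Oar_v3.1) stood at 10.9, 15.4, 17.3 and 17.5 FPKM in controls 1 to 4 and at 12.3, 8.61, 11.6 and 26.6 in norepinephrine animals 1 to 4. The norepinephrine group held both the highest and the lowest value of the 8. Its means were 15.3 ± 3.06 in controls and 14.8 ± 8.04 with norepinephrine, a log2 difference of -0.14 (SE 0.31, 95% interval -0.83 to 0.55, limma adjusted p = 0.922).

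NR4A2 (Nurr1; chromosome 2, 152145600 to 152150524) varied the least of the 3 receptors. Controls 1 to 4 had 6.25, 8.90, 8.96 and 7.44 FPKM, and norepinephrine animals 1 to 4 had 6.98, 6.33, 8.45 and 9.12. The 2 sets of values covered nearly the same range, and the log2 difference was -0.027 (SE 0.17, 95% interval -0.41 to 0.36, limma adjusted p = 0.973). NR4A3 (NOR-1; chromosome 2, 47656070 to 47688715) was near the filter, with 2.15, 0.836, 2.71 and 1.75 FPKM in controls 1 to 4 and 1.64, 1.08, 1.38 and 0.895 in norepinephrine animals 1 to 4. The 3 highest values were those of controls 1, 3 and 4, and control 2 was the lowest of all. NR4A3 differed by -0.31 on the log2 scale (SE 0.25, 95% interval -0.87 to 0.25, limma adjusted p = 0.777). The proportions of the receptors differed between animals: the ratio of NR4A1 to NR4A3 ran from 5.08 in control 1 to 29.7 in norepinephrine 4, with a median of 8.20.

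EGR factors bind GC-rich promoter elements, and EGR1 is known to act on genes of beta-cell identity. EGR1 (chromosome 5, 47225278 to 47227722) stood at 57.1, 49.3, 47.8 and 50.6 FPKM in controls 1 to 4 and at 38.6, 42.7, 48.3 and 57.3 in norepinephrine animals 1 to 4. Norepinephrine 1 and 2 were the lowest of the 8 animals, and norepinephrine 4 was the highest, next to control 1. The log2 difference was -0.14 (SE 0.14, 95% interval -0.46 to 0.18, limma adjusted p = 0.821).

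EGR2 (chromosome 25, 18804036 to 18815511), a factor known from myelinating glia and lymphocytes, had 3.37, 4.36, 6.53 and 4.26 FPKM in controls 1 to 4 and 6.07, 3.89, 4.82 and 8.85 in norepinephrine animals 1 to 4. Norepinephrine 4 lay above all others. For EGR2 this gave a log2 difference of 0.27 (SE 0.25, 95% interval -0.29 to 0.84, limma adjusted p = 0.801). Inside the number groups it was 0.46 (09) and -0.19 (10). EGR3 (chromosome 2, 42687817 to 42689728), a close relative of EGR1, had 3.54, 2.80, 4.12 and 4.85 FPKM in controls 1 to 4 and 3.22, 2.60, 2.58 and 4.57 in norepinephrine animals 1 to 4. The lowest 2 values were those of norepinephrine 2 and 3, but norepinephrine 4 was second only to control 4. EGR3 differed by -0.19 on the log2 scale (SE 0.21, 95% interval -0.66 to 0.28, limma adjusted p = 0.833). EGR1 exceeded EGR2 by 6.36 to 17.0 times and EGR3 by 10.4 to 18.7 times.

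KLF4 and KLF6 are Krüppel-like factors that share C2H2 zinc fingers, and KLF4 is widely known as a reprogramming factor. KLF4 (chromosome 2, 15622345 to 15625917) stood at 5.27, 11.2, 4.43 and 5.61 FPKM in controls 1 to 4 and at 4.18, 3.81, 8.22 and 8.54 in norepinephrine animals 1 to 4. Control 2, norepinephrine 3 and norepinephrine 4, all numbered 09, were the 3 highest, and norepinephrine 2 was the lowest. The treatments differed by a log2 value of -0.082 (SE 0.32, 95% interval -0.81 to 0.64, limma adjusted p = 0.960). KLF6 (chromosome 13, 43752643 to 43759001) stood at 20.2, 29.9, 17.3 and 22.2 FPKM in controls 1 to 4 and at 16.8, 14.6, 20.1 and 24.6 in norepinephrine animals 1 to 4. Control 2 was again the highest and norepinephrine 2 again the lowest. The log2 difference was -0.22 (SE 0.21, 95% interval -0.69 to 0.24, limma adjusted p = 0.802). Both genes were lower with norepinephrine inside each number group, with log2 differences of -0.67 (09) and -0.34 (10) for KLF4 and of -0.54 and -0.42 for KLF6. These values rest on 1 control in the first group and on 1 norepinephrine animal in the other.

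DUSP1 (chromosome 16, 4579276 to 4581446) stood at 19.1, 40.5, 20.6 and 22.4 FPKM in controls 1 to 4 and at 25.7, 16.7, 27.5 and 28.6 in norepinephrine animals 1 to 4. Control 2 stood far above the other controls, which lay below norepinephrine 1, 3 and 4. The log2 difference was -0.020 (SE 0.26, 95% interval -0.60 to 0.56, limma adjusted p = 0.988). Inside the number groups it was -0.56 (09) and -0.29 (10), and over all animals but control 2 it was 0.22.

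ZFP36 (tristetraprolin; chromosome 14, 48266102 to 48269670) had the largest difference of the 10 on the log2(FPKM + 1) scale as deposited. With a pseudocount of 0.1 that of NR4A3 was larger (-0.46 against 0.41), and with equal summed FPKM those of NR4A3 (-0.43) and KLF6 (-0.37) were larger than that of ZFP36 (0.25). ZFP36 stood at 55.0, 70.3, 44.2 and 46.2 FPKM in controls 1 to 4 and at 76.7, 61.7, 55.6 and 93.6 in norepinephrine animals 1 to 4. Each norepinephrine animal lay above controls 1, 3 and 4, and 2 of them lay above control 2. Means were 53.9 ± 11.9 FPKM in controls and 71.9 ± 17.0 with norepinephrine, a log2 difference of 0.40 (SE 0.20, 95% interval -0.051 to 0.86) that did not pass (limma adjusted p = 0.681; exact permutation test, two-sided p = 0.114, where 0.0286 is the smallest p possible). Within the number groups it was 0.067 (09) and 0.35 (10), and after adding gestational age to the model it was -0.17.

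**Figure D2:**
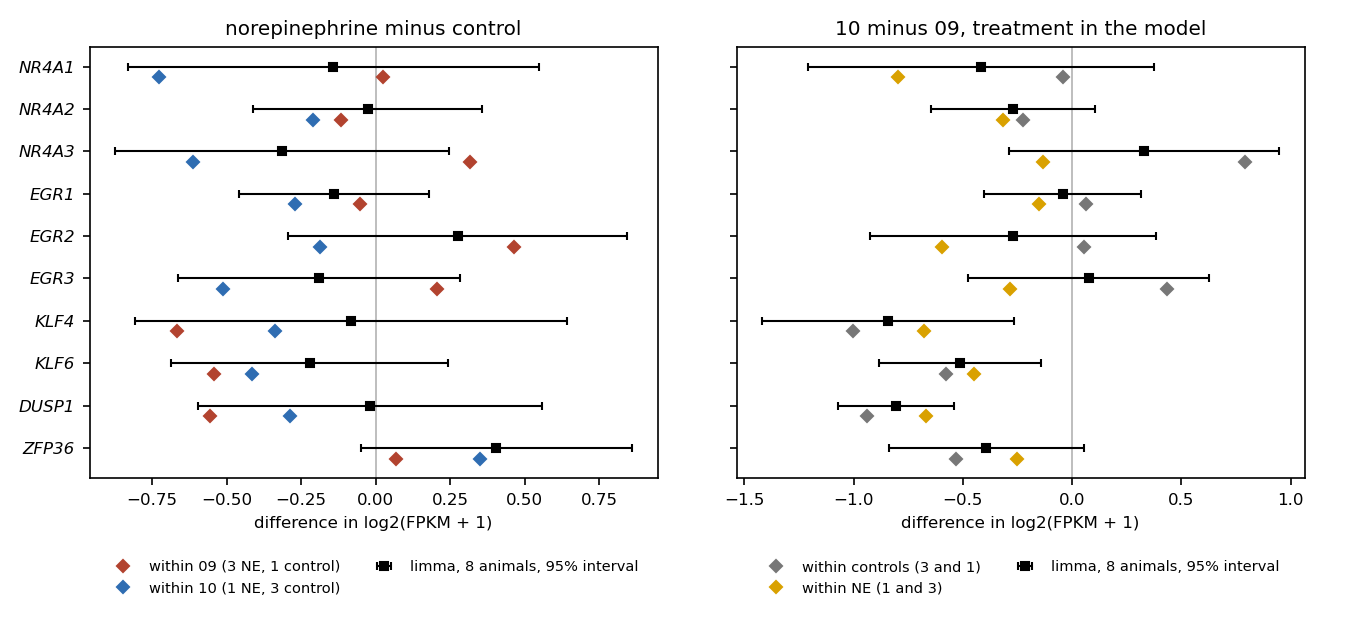
Differences in log2(FPKM + 1) for the 10 genes, norepinephrine (NE) minus control on the left and animals numbered 10 minus 09 on the right. Squares and lines are limma estimates over 8 animals with 95% intervals, and diamonds are plain differences of means within each number group or treatment group. On the left every interval spans 0, and on the right those of KLF4, KLF6 and DUSP1 lie below 0.

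Because the number groups are unbalanced between treatments, the norepinephrine effect was also fitted with the number group as a covariate. Such a fit rests on control 2 as the only control numbered 09 and on norepinephrine 2 as the only treated animal numbered 10. DUSP1 then differed by -0.42 (SE 0.11), KLF6 by -0.48 (SE 0.16) and KLF4 by -0.50 (SE 0.25), in each case lower with norepinephrine. Control 2 had the highest value of all 3 genes. In this fit 8 of the 10 members were lower, where 6252 of 13252 genes were higher. NR4A1 differed by -0.35 (SE 0.34), NR4A3 by -0.15 and ZFP36 by 0.21. None of the 10 passed, and their lowest limma adjusted p was that of DUSP1 (0.328). With gestational age as a covariate instead, NR4A1 differed by -0.89 (SE 0.34, limma adjusted p = 0.596) and KLF6 by -0.67 (SE 0.24, adjusted p = 0.582). KLF4 differed by -0.64 (SE 0.44) and DUSP1 by -0.56 (SE 0.31). In that fit 9 of the 10 were lower with norepinephrine, where 5972 of 13252 genes were higher. No member passed there either.

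The effect of norepinephrine was then compared between the number groups. Among animals numbered 10, where norepinephrine 2 is the only treated animal, 9 of 10 members were lower than the mean of the 3 controls (median -0.31), while 49.4% of all tested genes were lower there. Among animals numbered 09, with control 2 as the only control, 5 of 10 were lower (median -0.014), against 54.0% of tested genes. NR4A1, NR4A3, EGR2 and EGR3 were lower in 10 and higher in 09. Tested as an interaction, limma called 0 members (lowest adjusted p = 0.848), and 0.121% of all genes were called. Whether the effect differs between the number groups was thus not resolved for any member.

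Animals numbered 10 were then compared with those numbered 09, with treatment in the model. DUSP1 was lower in 10 and was the only one of the 10 genes to pass. Of the 10, 8 had lower values in 10 with a median log2 difference of -0.33 (over all tested genes, 57.4% were lower and the median was -0.088). With every library scaled to the same summed FPKM, 3 of the 10 were lower, where 10144 of 13263 genes were higher in 10. By limma, 1 of 10 members was called lower and 0 higher, while 10.4% of tested genes were called lower and 16.5% were called in either direction, so the share of members called was near that of all genes. Groups did not overlap for 1 member, against 25.4% of tested genes (14.8% lower in 10).

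DUSP1 stood at 30.6 ± 6.73 FPKM in the 4 animals numbered 09 and at 19.7 ± 2.41 in those numbered 10. Its lowest value in 09 was 25.7 and its highest in 10 was 22.4. The log2 difference was -0.80 (SE 0.11, 95% interval -1.07 to -0.54, limma adjusted p = 0.0105), and it was -0.94 within controls and -0.67 within norepinephrine animals. Without the model, and so without treatment, the exact permutation test gave the smallest p possible for 4 against 4 (two-sided p = 0.0286). Any gene whose number groups do not overlap has this p (25.4% of tested genes), so it adds nothing to the lack of overlap. With equal summed FPKM the difference was -0.37 (adjusted p = 0.0280), where the median over all genes was 0.31. DUSP1 no longer passed when control 2 was left out (-0.67, adjusted p = 0.159), in male fetuses only (-0.66, adjusted p = 0.172) or after adding gestational age to the model (-0.78, adjusted p = 0.0611). The summed acinar markers also parted the number groups without overlap, at 240 to 1191 FPKM in 09 and 150 to 182 in 10, and their part in the DUSP1 difference was not tested.

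KLF4 and KLF6 missed the threshold in the same comparison. KLF4 stood at 8.04 ± 2.90 FPKM in 09 and 4.78 ± 0.814 in 10 (log2 -0.84, SE 0.25, limma adjusted p = 0.0552). KLF6 stood at 22.9 ± 5.71 and 18.5 ± 3.32 (log2 -0.51, SE 0.16, limma adjusted p = 0.0640). Both were lower in 10 within controls and within norepinephrine animals. Both passed without norepinephrine 1 (KLF4 -0.99, limma adjusted p = 0.0142, and KLF6 -0.58, adjusted p = 0.0365), where 2272 of 13231 genes were called. With equal summed FPKM neither passed, at -0.45 for KLF4 (limma adjusted p = 0.168) and only -0.082 for KLF6. Without control 2 the differences were -0.68 for KLF4 and -0.45 for KLF6, and neither passed. ZFP36 stood at 74.0 ± 15.8 in 09 and 51.8 ± 8.12 in 10 (log2 -0.39, limma adjusted p = 0.193), and turned to 0.053 with equal summed FPKM. NR4A1 (-0.42), NR4A2 (-0.27) and EGR2 (-0.27) did not pass either, with adjusted p of 0.418, 0.273 and 0.528 and positive values with equal summed FPKM.

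EGR1 was the most even member between the number groups, at 48.4 ± 7.65 FPKM in 09 and 49.5 ± 6.0 in 10 (log2 -0.043, 95% interval -0.40 to 0.32, limma adjusted p = 0.869). Under equal summed FPKM its difference was 0.40 (adjusted p = 0.0711). NR4A3 (0.33, adjusted p = 0.416) and EGR3 (0.076, adjusted p = 0.848) had the only positive differences, and both turned negative without control 2.

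Several members were highest or lowest in the same animals. Norepinephrine 4 was the highest of the 8 animals for 5 members (NR4A1, NR4A2, EGR1, EGR2 and ZFP36) and among the highest 2 for 9. Norepinephrine 2 was the lowest for 4 members (NR4A1, KLF4, KLF6 and DUSP1) and among the lowest 2 for 8. Control 2 was the highest for 3 (KLF4, KLF6 and DUSP1) and the lowest for NR4A3. Over all tested genes, norepinephrine 4 was the highest for 21.6%, norepinephrine 2 the lowest for 15.0% and control 2 the highest for 24.1%. The mean of the members, each centred on its own mean over the 8 animals, was 0.35 in norepinephrine 4, -0.35 in norepinephrine 2 and 0.17 in control 2, against 0.052, -0.038 and 0.058 for all tested genes. The SD over 8 animals exceeded the median of all tested genes (0.30 on the log2 scale) for 7 of 10 members.

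Some marker lists of other cell types and the heat-shock genes also had their highest or lowest sums in these animals. The 16 listed mesenchymal markers summed to 5524 FPKM in norepinephrine 4, the highest, and to 1762 in norepinephrine 2, the lowest. The other 6 animals lay between 2177 and 3822. All 16 passed the filter, and 15 of them were highest in norepinephrine 4 and 9 lowest in norepinephrine 2. The 14 endothelial markers summed to 528 FPKM in norepinephrine 4, 439 in control 2 and 228 in norepinephrine 2, again the highest, the next and the lowest of the 8. Norepinephrine 3 was next to the lowest in both sums (2177 and 263 FPKM). It was lowest for 6 mesenchymal and 6 endothelial markers, while its centred mean of the members was -0.019. The leukocyte sum was lowest in norepinephrine 2 as well (203 FPKM) and highest in norepinephrine 1 (356), with 339 in norepinephrine 4. By gene, 6 of the 12 tested leukocyte markers were highest in norepinephrine 4 and 2 in norepinephrine 1, and 4 were lowest in norepinephrine 2. Acinar sums followed another order, with 1191 FPKM in norepinephrine 3, 656 in norepinephrine 1, 430 in norepinephrine 4 and 150 to 240 in the others. By gene, 8 of the 10 tested acinar markers were lowest in norepinephrine 2 (15.0% over all tested genes). Highest in norepinephrine 3 were 7 of them, and in norepinephrine 4 only 1. No listed marker of these 4 lists was at 0 in all animals. The part of these cell types in the early-gene values was not tested. Heat-shock genes, which respond to stress of the cells, summed highest in norepinephrine 4 as well (3381 FPKM, against 2553 to 3268 in the others). Their lowest sum was that of control 1, and norepinephrine 2 had 2656. Of the 15 tested, 7 were highest in norepinephrine 4 (46.7%, against 21.6% of all tested genes). Endocrine markers also summed highest in this animal, at 20771 FPKM, with 2 of 19 tested highest there. The part of these genes was not tested. Norepinephrine 4 was also the youngest fetus, at 137 days.

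**Figure D3:**
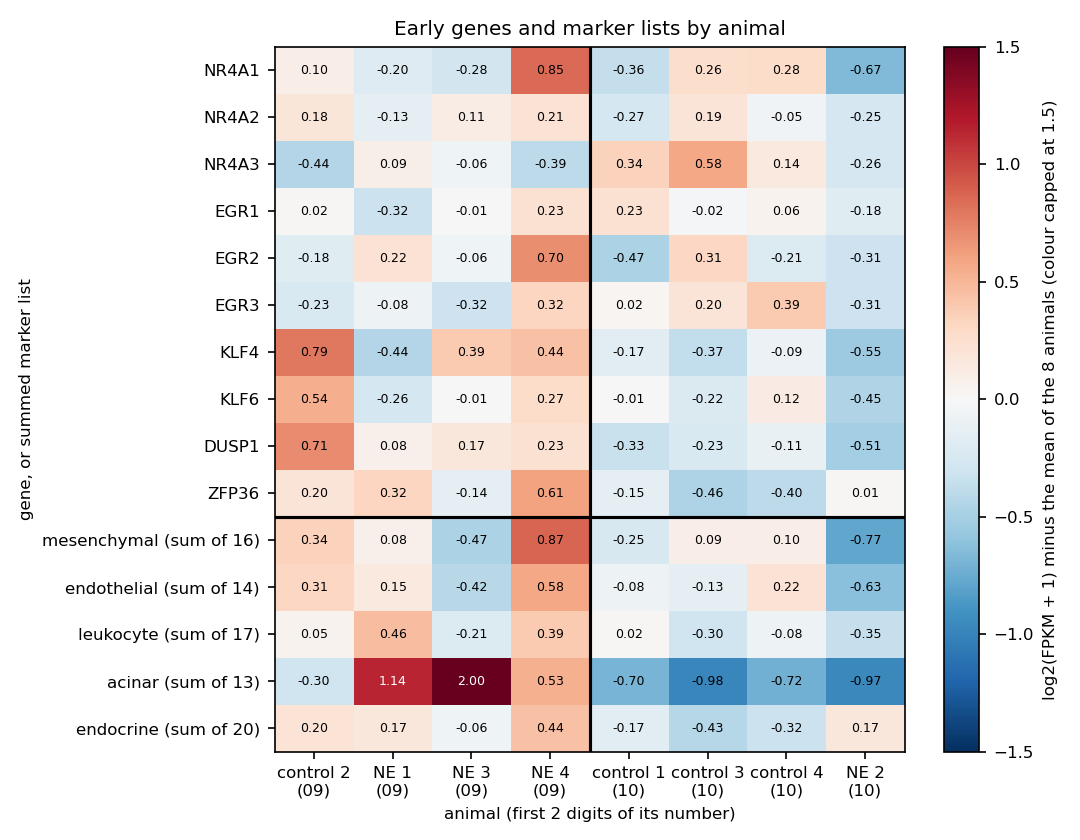
log2(FPKM + 1) of the 10 genes, and of the summed FPKM of 5 marker lists, minus the mean of the 8 animals. Columns are animals in their number groups, red is above the mean and blue below, and the colour is capped at 1.5. Norepinephrine (NE) 4 is above the mean for 9 of 10 genes and is highest for the mesenchymal and endothelial sums, while NE 2 is below the mean for 9 genes and is lowest for both sums.

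The likeness of the members to each other was described by how 2 genes order the animals. The 8 animals form 28 pairs, 12 of them within a number group, and a pair counts as alike when both genes are higher in the same animal. No correlation over the 8 animals is given, because the libraries part by number group. Over the 45 pairs of members the median was 17 of 28, with a range from 5 to 26. The same count over pairs of other genes is not given, so likeness particular to the members was not tested. KLF4 and KLF6 were the most alike, with 26 of 28 pairs and 12 of 12 within number groups. DUSP1 was most like KLF4 (24 of 28, 11 of 12), EGR2 like NR4A2 (24 and 9), NR4A1 like NR4A2 (23 and 9), EGR1 like KLF6 (23 and 10) and EGR3 like NR4A1 (22 and 11).

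NR4A3 and ZFP36 stood apart from the others. The order of the animals by NR4A3 rests on values near the filter (0.836 to 2.71 FPKM), with an unknown number of fragments behind them. The best match of NR4A3 was EGR3, with 18 of 28, and it ordered only 5 of 28 pairs as ZFP36 did and 6 of 28 as DUSP1 did. Over all 28 pairs NR4A3 was thus mostly high where ZFP36 and DUSP1 were low. Within the number groups it ordered 4 of 12 pairs as ZFP36 did and 4 of 12 as DUSP1 did. ZFP36 was most like DUSP1 (19 of 28), and within the number groups only 4 of 12 pairs were alike. EGR1 and EGR2, although of the same family, agreed in 12 of 28 pairs.

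**Figure D4:**
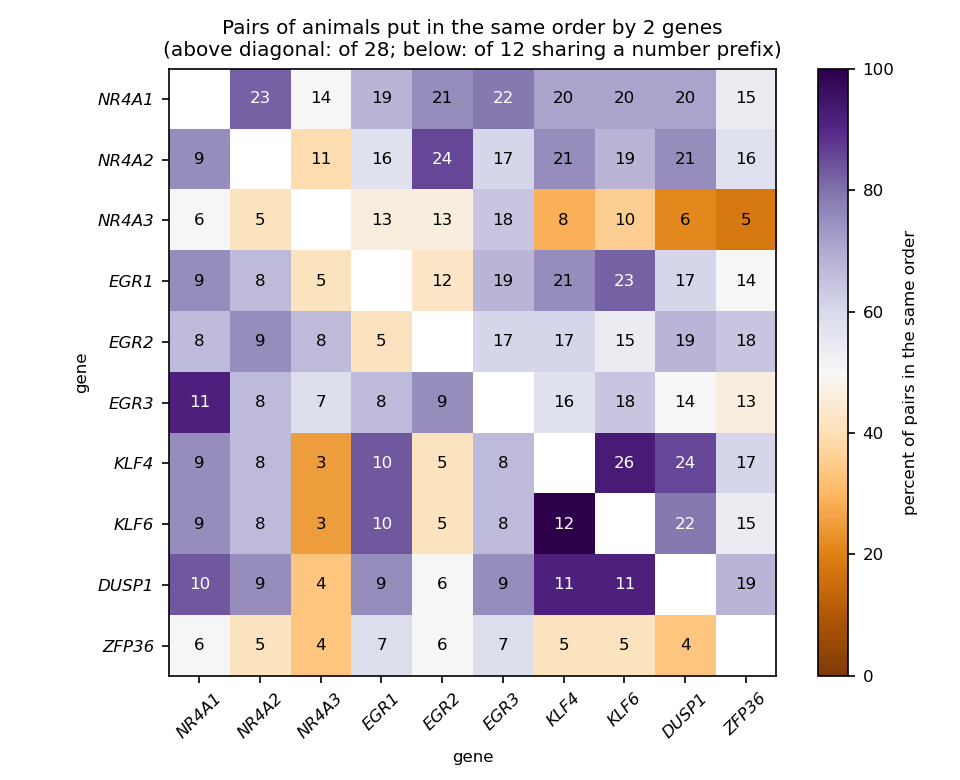
Number of pairs of animals that 2 genes put in the same order, of all 28 pairs above the diagonal and of the 12 pairs within a number group below it. Colour gives the percent of pairs, purple above 50 and orange below. KLF4, KLF6 and DUSP1 form a dark block (22 to 26 of 28 pairs), and NR4A3 has the lowest counts.

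Among 11360 other tested genes with a symbol, SLC35E3, which encodes a member of a nucleotide-sugar transporter family, ordered all 28 pairs as the mean of the members did. It stood at 29.9 FPKM in norepinephrine 4, 13.6 in norepinephrine 2 and 14.0 to 17.2 in the others. TBKBP1, an adaptor of the kinase TBK1, and DBNDD2 followed with 27 of 28 pairs and 12 of 12. ARHGAP24, a GTPase-activating protein of Rac, and the transcription factor ETS1 also ordered 27 of 28, with 11 of 12. ETS1 stood at 101.6 FPKM in norepinephrine 4 and 46.8 in norepinephrine 2. In all, 35 genes ordered at least 26 pairs alike. These are the best matches picked from many genes over 8 animals, and they describe the order of these animals only.

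Relatives and partners of the members were examined as a list of 32 genes, of which 27 were tested. With norepinephrine 12 were lower and 15 higher, with a median of 0.13 (14 were lower with equal summed FPKM), and limma called 0, as for all genes (0%). The corepressors NAB1 and NAB2, which bind EGR proteins, stood at 25.4 ± 2.46 and 26.0 ± 1.55 FPKM in controls and at 23.0 ± 2.45 and 24.0 ± 4.86 with norepinephrine. DUSP9, a phosphatase of MAP kinases, was the most abundant relative, at 211.1 ± 81.8 in controls and 272.8 ± 66.1 with norepinephrine (log2 0.40, limma adjusted p = 0.773). EGR4, at 0.760 FPKM over the 8 animals, was below the filter.

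Between number groups, 21 of the 27 relatives had lower and 6 higher means in 10. By limma 4 of the 27 were called lower and 0 higher, against 10.4% and 6.06% of all genes. DUSP10 was lower in 10 (26.4 ± 6.81 FPKM in 09, 12.5 ± 2.93 in 10, log2 -1.04, limma adjusted p = 0.0393). DUSP9 (310.4 ± 20.5 and 173.6 ± 26.4, log2 -0.86, adjusted p = 0.0146) and DUSP2 (9.03 ± 4.37 and 6.50 ± 1.79, log2 -0.79, adjusted p = 0.0482) were lower too. The fourth, named after its values were seen, was RXRB, a retinoid X receptor (log2 -0.59, adjusted p = 0.0363). Without control 2, 0 relatives were called, where 18 of 13222 genes were called. With equal summed FPKM 9 of 27 means were lower, and 0 relatives were called lower and 2 higher. Over all genes 236 of 13263 were called lower there and 4127 higher. Among 44 kinases and transcription factors known to act upstream of early genes, 20 had lower and 24 higher means in 10. Of the 44, limma called 3 lower and 9 higher, against 10.4% and 6.06% of all genes. CREB1, the cyclic AMP response factor, was higher (7.90 ± 3.30 and 14.6 ± 1.63, log2 1.19, adjusted p = 0.0207), as was PRKACB, a catalytic subunit of protein kinase A (14.6 ± 1.72 and 25.8 ± 2.59, log2 0.79, adjusted p = 0.0159). MKL2 was higher too (7.83 ± 1.13 and 14.6 ± 2.54, log2 0.83, limma adjusted p = 0.0235). MAPKAPK2, a kinase, was lower (181.2 ± 18.8 and 138.1 ± 10.4, log2 -0.49, adjusted p = 0.0201). All these calls were lost without control 2. With norepinephrine limma called 0 of the 44, with a median of 0.034 (-0.12 with equal summed FPKM). In 10 against 09, equal summed FPKM left 6 of the 44 means lower, with 22 genes called higher and 0 lower, where 4127 of all 13263 genes tested were called higher. Without control 2, 0 of the 44 were called.

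Other immediate-early genes were taken from a list of 44 symbols, of which 33 were tested. FOS, JUN, JUND, IER2, SRF, PER1 and ARC were not among the rows named, and ID2 was listed at 0 in all animals. With norepinephrine 13 were lower and 20 higher (median 0.13; 17 lower with equal summed FPKM), and limma called 0. In animals numbered 10, 31 of 33 were lower (median -0.58), and 12 were called lower and 0 higher, against 10.4% of all genes called lower. GADD45A, which is induced by DNA damage and other stress, stood at 268.4 ± 90.0 FPKM in 09 and 117.6 ± 15.4 in 10 (log2 -1.27, limma adjusted p = 0.0197). SGK1, a kinase induced by glucocorticoids, stood at 26.5 ± 5.39 and 12.1 ± 1.63 (log2 -1.12, adjusted p = 0.0151), and CTGF, a secreted matricellular protein, at 28.2 ± 10.4 and 14.9 ± 4.70 (log2 -1.12, adjusted p = 0.0453). The count called lower was 0 without control 2 (7 of 13222 over all genes) and 0 after adding gestational age (1 of 13252). It was 2 without norepinephrine 2 (535 of 13232 over all genes). With equal summed FPKM it was 4 (236 of 13263) and with equal upper quartiles 6 (836 of 13248). Of 15 heat-shock genes tested, limma called 0 with norepinephrine. In 10 against 09 it called 1 higher and 0 lower, against 6.06% and 10.4% of all genes. That gene was CHORDC1, a co-chaperone (41.0 ± 9.40 and 62.6 ± 5.57, log2 0.82, adjusted p = 0.0166). With equal summed FPKM 6 heat-shock genes were called higher, where 4127 of 13263 genes were called higher. CHORDC1 did not pass without control 2 (0.53, adjusted p = 0.210), in male fetuses only (0.46, adjusted p = 0.206) or after adding gestational age (0.91, adjusted p = 0.0694).

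Marker lists of cell types gave 0 calls with norepinephrine by limma. Medians of the log2 difference were 0.29 for 19 endocrine, 0.93 for 10 acinar, -0.015 for 7 duct, -0.19 for 14 endothelial, -0.080 for 16 mesenchymal, 0.0077 for 12 leukocyte and 0.013 for 6 neural or glial genes. In animals numbered 10, called lower were 2 endocrine, 2 acinar, 3 endothelial, 1 mesenchymal and 1 leukocyte genes, and called higher were 2 endocrine genes and 1 neural or glial gene, where 10.4% of all genes were called lower and 6.06% higher. The duct list gave 0 calls there. Without control 2 the only call left in these lists was 1 acinar gene, lower in 10, where 18 of 13222 genes were called. With equal summed FPKM 5 endocrine genes were called higher and 0 lower, where 4127 of 13263 genes were called higher and 236 lower. The mesenchymal median in 10 against 09 moved widely between alternatives. It was -0.41, and -1.47 in male fetuses only, -1.12 without control 2, 0.031 with equal summed FPKM, 0.20 without norepinephrine 2, -0.086 without norepinephrine 4 and 0.59 after adding gestational age. For norepinephrine against control it was -0.080, and -1.15 after adding gestational age, -0.45 without norepinephrine 4, 0.20 without norepinephrine 3 and 0.23 without norepinephrine 2.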

How the data were processed

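RNA of isolated islets of 8 fetuses was sequenced as paired reads of 100 bp from a TruSeq RNA kit, per the labels' protocols. Strand marking was not given in the sources used here: sense and antisense reads at 1 locus may be mixed. The submitters' processing notes name TopHat2 2.0.1, Cufflinks 2.1.1, Cuffdiff and build Oar_v3.1. The deposited values are FPKM, 1 column per animal, and no column was left out (0 not used). What the authors filtered, which annotation they used and how they scaled libraries was not given in the sources used here.

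Genes whose mean reached 1 FPKM were analysed as log2(FPKM + 1) with limma 3.58.1 in R 4.3.3 (eBayes with an intensity trend, two-sided, Benjamini-Hochberg over 13252 genes, threshold 0.05). The number-group and interaction models held treatment and number group. A lone animal in a cell of the design is assumed to vary like the others. Locus starts were raised by 1 to count from 1. Each fetus is a separate animal. The labels tie no control to a same-numbered norepinephrine fetus, and numbers were not used as pairs. The fitting code was tested on simulated data.

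The members and 11 gene lists were chosen with earlier results of these data known. The text names all members, the best matches in animal order, and from each list the 3 called genes with the largest change or the 2 most abundant, and not all of these are printed. NAB1, NAB2, EGR4 and RXRB are named outside that rule. Alternatives covered pseudocount, filter, scaling, variance trend, covariates, sex and each animal left out.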

Additional observations from a re-analysis of the deposited data

Results flagged for a closer look

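DUSP1 in control 2 (40.5 FPKM) lay apart from the other 3 controls (19.1, 20.6 and 22.4 FPKM). Its gap to the nearest control was 0.844 of the range of the group, above Dixon's 95% critical value for 4 samples. This was the only such value among 20 groups of 4 animals examined (10 genes in 2 groups), where chance gives about 1 in 20. Control 2 was also the only control numbered 09 and the only female control.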

How the results depend on the processing

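The count of genes called between norepinephrine and control was 0, and 1 with equal summed FPKM, in male fetuses only and with the number prefix as a covariate. Leaving out each animal gave 0 to 2 (2 without norepinephrine 1, 1 without norepinephrine 3). No member was called in any of these. Between number groups 2187 genes were called (803 higher, 1384 lower in 10). This was 4363 with equal summed FPKM (4127 higher, 236 lower), 2160 with equal upper quartiles (1324 higher, 836 lower), 1 with gestational age as a covariate, 17 in male fetuses only and 18 to 2272 without single animals (18 without control 2, 710 without norepinephrine 2, 859 without control 3, 915 without control 1 and 1119 without control 4). Equal summed FPKM moved the median of all genes from -0.088 to 0.31 there and from 0.017 to -0.12 between treatments. The interaction count was 16, and 5 with a pseudocount of 0.1, 4 with a mean of at least 5 FPKM and 10 to 22 without single animals (10 without control 3), the last chosen after seeing the data. It could not be fitted without control 2 or norepinephrine 2.

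With the replicate block, 0 genes were called for norepinephrine and 471 between number groups. DUSP1 kept its call there (adjusted p = 0.0484). Same-numbered animals had correlations of -0.38 to 0.093, and 1 of 4 controls correlated best with its own number.

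For norepinephrine, the sign turned with gestational age as a covariate for ZFP36 (-0.17), EGR2 (-0.23) and NR4A3 (0.039), and in male fetuses only for DUSP1 (0.16) and KLF4 (0.026). Leaving out single animals gave DUSP1 -0.13 to 0.22, KLF4 -0.24 to 0.17, NR4A2 -0.12 to 0.052 and NR4A1 -0.45 to 0.057. Between number groups the sign turned with equal summed FPKM for ZFP36 (0.053), NR4A2 (0.13), EGR2 (0.099), NR4A1 (0.0011) and EGR1 (0.40). EGR1 also turned with equal upper quartiles (0.093) and with treatment left out (0.038). Gestational age turned EGR2 (0.11), NR4A1 (0.15) and EGR1 (0.078), and male fetuses only turned EGR3 (-0.43) and NR4A3 (-0.10). Leaving out single animals gave EGR3 -0.28 to 0.44, NR4A3 -0.13 to 0.79, EGR2 -0.60 to 0.055 and EGR1 -0.15 to 0.065. The cause of these turns was not tested. Over all alternatives, 163 of the members' norepinephrine values kept direction and 15 reversed, and none passed the threshold in any of them. Of their number-group values, 156 kept direction and side of the threshold and 17 reversed. A further 2 came to pass and 3 no longer passed.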
